A study of Rattus norvegicus with 4 samples.

Results

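The 10 genes followed here encode the contractile apparatus of heart muscle and were measured in rat embryoid bodies, the aggregates that pluripotent cells form as they start to differentiate: the troponins Tnnc1, Tnnt2, Tnni1 and Tnni3, the actins Actc1 and Acta1, and the myosin chains Myl3, Myl4, Myl7 and Myh7. They were chosen by symbol from the deposited gene tables, and all 10 of 10 were found among 32753 genes. Total RNA of embryoid bodies at differentiation day 4 was sequenced after removal of ribosomal RNA. The 2 Kcnh2-/- libraries and the 2 wild-type (WT) libraries came from rat embryonic stem cells of a strain labelled DASD. Kcnh2 encodes the potassium channel ERG1. Both groups were handled alike: hanging drops in a medium with CHIR9902, PD0325901 and Y27632, then culture on laminin without Y27632, then a medium named DM. CHIR9902 is the name the labels use. The labels do not give the altered part of Kcnh2, the number of clones, or whether replicates were separate cultures, so p-values measure only the spread between these samples. Whole embryoid bodies were sequenced, so fewer cells of a type and less RNA per cell cannot be told apart.

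The sarcomere is the repeating unit of striated muscle, in which myosin thick filaments pull on actin thin filaments. Calcium binding to troponin C, held with troponin I and troponin T on the thin filament, lets the heads of myosin engage. The embryonic heart uses Actc1 together with Acta1, and slow skeletal troponin I (Tnni1) before cardiac troponin I (Tnni3). Promoters of the muscle actins carry a CArG box, the DNA site of serum response factor.

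RefSeq promoter windows on the GRCr8 assembly, 250 bases before to 50 after each annotated gene start, were matched for 9 of the 10 genes, with 2 windows for Tnnt2. Tnnc1 had no window. Those of Acta1, Actc1 and Myl3 are shown because they held a CArG box, and that of the near-silent Tnni3 as an example without one; the windows of Myl4 and Tnnt2, both expressed, held none either. Capitals mark the CArG box, and the other bases are in lower case, 5′ to 3′.
Acta1 (chr19:68784145-68784444, minus strand): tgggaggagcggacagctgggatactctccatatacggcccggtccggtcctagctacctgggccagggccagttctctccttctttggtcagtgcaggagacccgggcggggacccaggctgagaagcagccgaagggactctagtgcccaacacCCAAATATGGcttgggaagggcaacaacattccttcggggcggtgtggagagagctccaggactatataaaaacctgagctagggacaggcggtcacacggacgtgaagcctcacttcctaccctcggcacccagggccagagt
Actc1 (chr3:121271778-121272077, minus strand): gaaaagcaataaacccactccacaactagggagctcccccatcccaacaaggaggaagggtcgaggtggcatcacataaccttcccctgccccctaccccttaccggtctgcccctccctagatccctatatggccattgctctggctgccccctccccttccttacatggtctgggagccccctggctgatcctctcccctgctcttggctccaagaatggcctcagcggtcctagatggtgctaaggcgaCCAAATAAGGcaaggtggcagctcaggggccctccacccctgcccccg
Myl3 (chr8:119616844-119617143, plus strand): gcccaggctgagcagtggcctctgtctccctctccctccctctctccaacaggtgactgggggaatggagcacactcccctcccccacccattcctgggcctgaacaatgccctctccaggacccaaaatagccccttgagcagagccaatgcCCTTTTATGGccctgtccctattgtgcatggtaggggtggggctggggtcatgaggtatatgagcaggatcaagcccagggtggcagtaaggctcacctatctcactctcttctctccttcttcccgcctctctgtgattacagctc
Tnni3 (chr1:78342321-78342620, plus strand): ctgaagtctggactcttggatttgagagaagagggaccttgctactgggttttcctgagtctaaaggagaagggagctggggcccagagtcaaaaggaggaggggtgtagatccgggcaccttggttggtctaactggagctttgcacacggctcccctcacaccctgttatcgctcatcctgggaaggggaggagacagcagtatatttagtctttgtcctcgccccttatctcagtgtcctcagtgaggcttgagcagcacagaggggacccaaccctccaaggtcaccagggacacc
A CArG box was found in the windows of 3 of the 9 genes, against 1.64% of all 33469 windows. It began 94 bases before the annotated start in Acta1, 97 before in Myl3 and 2 after in Actc1. Searched on both strands, TATAAA was in the windows of Acta1 and Myl4 and in 14.2% of all windows. CATTCC, the element read by TEAD factors, was in those of Acta1, Myl3 and Tnnt2 and in 14.2% of all windows. AGATAA, a site of the GATA type, was in those of Tnni3 and Tnnt2 and in 11.6% of all windows. No window of the 9 genes held the MEF2 box, which 1.87% of all windows did. No match overlapped another. A match is a description of the sequence, not evidence of binding.

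**Figure D1:**
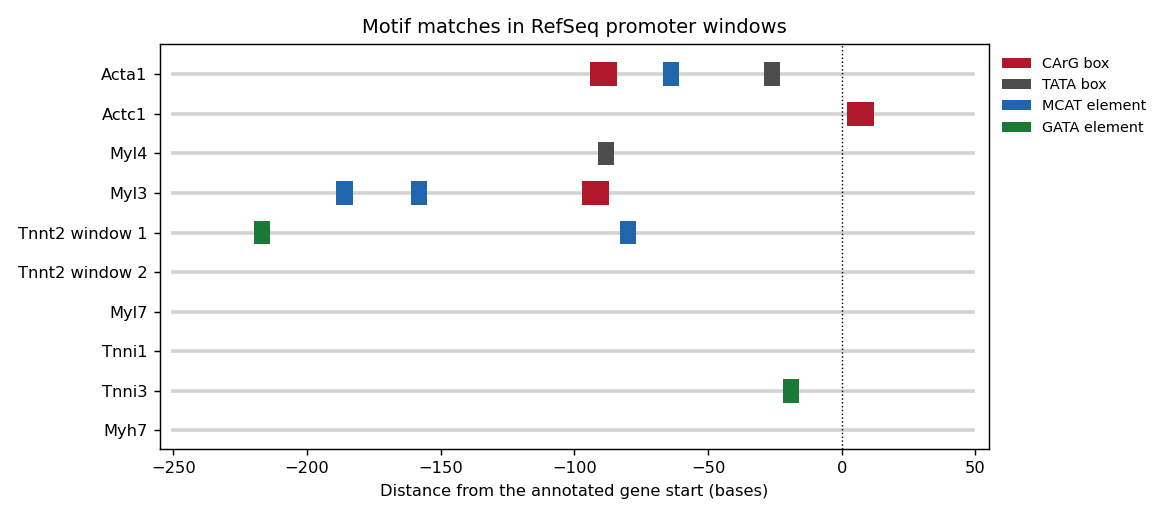
Motif matches in the RefSeq promoter windows of 9 sarcomere genes, with the distance in bases from the annotated gene start on the horizontal axis and genes ordered by mean RPKM. The CArG box (red) appears in Acta1, Actc1 and Myl3, and the windows of Myl7, Tnni1 and Myh7 and the second window of Tnnt2 hold none of the motifs searched.

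Levels are the authors' RPKM, in which reads are corrected for how long a transcript is and how many reads a library has. Between 17610 and 17833 genes were above 0 per library. Absolute depth is unknown. Of the summed RPKM, 99.5% and 90.3% lay outside protein-coding genes in Kcnh2-/- replicates 1 and 2, and 98.7% and 93.9% in WT replicates 1 and 2. That share was thus higher in both replicate 1 libraries. The protein-coding genes summed to 588033 and 865357 RPKM in Kcnh2-/- and 1.02e+06 and 711900 RPKM in WT. The part of this in the sarcomere values was not tested, and after median-of-ratios scaling the median difference given for them below was -1.57. Over genes under 0.08 RPKM, 30.4% shared the same Kcnh2-/- to WT ratio between the replicate 1 libraries and 21.1% between the replicate 2 libraries. Across replicate numbers the commonest ratio held 4.52% to 6.76%, so the libraries group by replicate number, for which the labels name no batch, and differences within each number are printed beside the pooled ones. Kcnh2 stood at 0.108 and 0.504 RPKM in Kcnh2-/- and at 2.61 and 1.45 RPKM in WT (limma adjusted p = 0.980), lower in both Kcnh2-/- libraries as labelled.

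The genes fell into a high, a middle and a near-silent group. Acta1, Tnnc1 and Actc1 each exceeded 300 RPKM in WT replicate 1 and made up 76.3% to 91.4% of the summed RPKM of the 10 genes in every library. Myl4, Myl3 and Tnnt2 peaked between 16.1 and 37.9 RPKM. Tnni1, Myl7, Myh7 and Tnni3 never exceeded 2.12 RPKM. Only 1 day was sampled, so the levels give an order of abundance and not an order of onset in time.

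**Figure D2:**
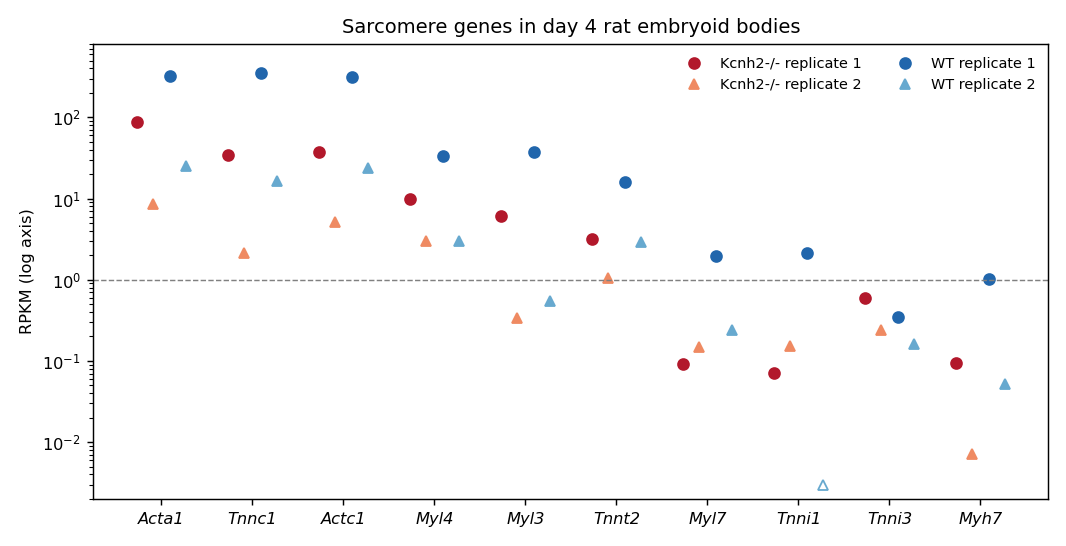
RPKM of each sarcomere gene in each library on a log axis, ordered by the mean over the 4 libraries, with circles for replicate 1, triangles for replicate 2, an open symbol for a gene listed at 0, and a dashed line at 1 RPKM. WT replicate 1 is the highest library for 9 of the 10 genes, the exception being Tnni3, and the Kcnh2-/- replicate 1 points of the 6 genes of highest mean lie between those of the WT replicates.

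Tnnc1 (rn6 chromosome 16, 7292095 to 7295465), troponin C of cardiac and slow skeletal muscle and the calcium sensor of the thin filament, had 34.2 and 2.15 RPKM in Kcnh2-/- replicates 1 and 2, and 349 and 16.6 RPKM in WT replicates 1 and 2. The groups overlapped, because WT replicate 2 lay below Kcnh2-/- replicate 1. Within replicate 1 the Kcnh2-/- level was 9.80% of the WT level, and within replicate 2 it was 12.95%. The difference in log2(RPKM + 1) was -2.90 ± 1.85 (SE, limma adjusted p = 0.980 over 12355 genes). It was the largest difference of the 6 genes tested.

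Tnnt2 (chromosome 13, 52662995 to 52680990), which encodes the cardiac troponin T that ties the complex to tropomyosin, had 3.15 and 1.04 RPKM in Kcnh2-/-, against 16.1 and 2.91 RPKM in WT. The groups overlapped by a narrow margin, at 3.15 against 2.91 RPKM. The log2 difference was -1.49 ± 0.84 (SE, limma adjusted p = 0.980). Troponin C exceeded troponin T in every library: Tnnc1 was 10.9 and 2.07 times Tnnt2 in Kcnh2-/-, and 21.7 and 5.71 times in WT, on the RPKM scale, which is per length.

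The inhibitory subunits were nearly silent. Tnni1 (chromosome 13, 52624877 to 52637297), the slow skeletal troponin I of the embryonic heart, had 0.0712 and 0.154 RPKM in Kcnh2-/-, and 2.12 RPKM in WT replicate 1 while it was listed at 0 in WT replicate 2. Tnni3 (chromosome 1, 72874403 to 72886488), the adult cardiac troponin I, had 0.588 and 0.241 RPKM in Kcnh2-/- and 0.352 and 0.162 RPKM in WT. Unlike the 6 genes of highest mean, Tnni3 was higher in the Kcnh2-/- library than in the WT library within each replicate number. The Tnni3 locus overlaps Dnaaf3 in the files, so its reads may be shared. Troponin I (Tnni1 and Tnni3 summed) reached 0.659 and 0.395 RPKM in Kcnh2-/- and 2.47 and 0.162 RPKM in WT, and Tnnc1 exceeded that sum in all 4 libraries, by 5.45 times or more.

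Actc1 (chromosome 3, 105507402 to 105512939), the cardiac muscle actin of the thin filament, had 37.3 and 5.14 RPKM in Kcnh2-/-, against 310.2 and 23.5 RPKM in WT. The groups overlapped, again through WT replicate 2. For Actc1 the difference was -2.51 ± 1.52 (SE, limma adjusted p = 0.980), and the Kcnh2-/- level was 12.0% and 21.9% of WT within replicates 1 and 2.

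Acta1 (chromosome 19, 56674073 to 56677084), the skeletal muscle actin that the embryonic heart also makes, had 88.7 and 8.61 RPKM in Kcnh2-/- and 324.7 and 25.0 RPKM in WT. It was the highest of the 10 genes in 3 libraries and second to Tnnc1 in WT replicate 1. The Acta1 difference was -1.65 ± 1.63 (SE, limma adjusted p = 0.980), and the Kcnh2-/- level was 27.3% and 34.4% of WT within replicates 1 and 2. The ratio of Actc1 to Acta1 was 0.421 and 0.596 in Kcnh2-/- and 0.955 and 0.938 in WT. The groups did not overlap in that ratio, but with 2 libraries against 2 an exact permutation test cannot go below p = 0.333, and the ratio was chosen after its values were seen. The coding sequences of the muscle actins are near-identical, and the files do not show how the authors' tools divided their reads.

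Of the myosin light chains, Myl3 (chromosome 8, 119030874 to 119036996), the essential light chain of the ventricle and of slow skeletal muscle, had 6.12 and 0.335 RPKM in Kcnh2-/-, against 37.9 and 0.543 RPKM in WT. Among the 6 genes of highest mean it had the widest RPKM ratio between replicates, with replicate 1 at 18.3 times replicate 2 in Kcnh2-/- and 69.8 times in WT. Both replicate 2 values were below 1 RPKM. In log2(RPKM + 1) the gap of Myl3 was -4.66 in WT but -2.42 in Kcnh2-/-, where that of Tnnc1 was -3.48. The fitted difference of Myl3 was -1.33 ± 1.76 (SE, limma adjusted p = 0.980). Myl4 (chromosome 10, 92628355 to 92638100), the essential light chain of the atrium and of embryonic muscle, had 9.74 and 3.01 RPKM in Kcnh2-/- and 33.4 and 3.04 RPKM in WT. The replicate 2 libraries were therefore almost level for Myl4, with Kcnh2-/- at 99.1% of WT, and the fitted difference was -0.84 ± 1.16 (SE, limma adjusted p = 0.980). Myl3 was below Myl4 in both Kcnh2-/- libraries and in WT replicate 2, and slightly above it in WT replicate 1.

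The atrial regulatory light chain and the slow myosin heavy chain were near-silent. Myl7 (chromosome 14, 86143861 to 86147553) had 0.0926 and 0.150 RPKM in Kcnh2-/- and 1.97 and 0.240 RPKM in WT. Myl7 was the 1 gene of the 10 whose groups did not overlap, and 14.4% of the 20201 genes above 0 in at least 1 library were likewise lower in Kcnh2-/- without overlap. Myh7 (chromosome 15, 33632415 to 33656089), the motor of slow and ventricular muscle, had 0.0933 and 0.00721 RPKM in Kcnh2-/- and 1.01 and 0.0520 RPKM in WT. Its locus overlaps the microRNA gene Mir208b and AC130940.1, and its coding sequence is close to that of Myh6.

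In each library the order was much the same. Acta1, Tnnc1 and Actc1 took the first 3 places in Kcnh2-/- replicate 1 and in both WT libraries. In Kcnh2-/- replicate 2 Myl4, at 3.01 RPKM, stood above Tnnc1, at 2.15. Acta1 exceeded Actc1, and Actc1 exceeded Myl4, in all 4 libraries. Among the 6 highest, Tnnc1 changed places with Acta1, Actc1 and Myl4 between libraries, and Myl3 with Myl4 and Tnnt2. Across libraries the spread of each gene was wide: the ranges of neighbours in the order of means overlapped in at least 1 group except at the step from Tnnt2 to Myl7. Among protein-coding genes above 0, Tnnc1 lay in the top 18.2% and 62.9% in Kcnh2-/- replicates 1 and 2, and in the top 1.56% and 31.7% in WT replicates 1 and 2.

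The filter of 1 RPKM in at least 2 libraries kept 6 of the 10 genes (Tnnc1, Tnnt2, Actc1, Acta1, Myl3 and Myl4) and left out Tnni1, Tnni3, Myl7 and Myh7. With limma on log2(RPKM + 1), 0 of the 6 passed an adjusted p of 0.05, and 0 had an unadjusted p under 0.05, where 418 of the 12355 genes did. Over all genes 0.113% were called, and 0.0809% were called lower in Kcnh2-/-. The median difference of the 6 genes was -1.57, and that of all genes tested was 0.00524. Of the 6 genes, 0 were lower without overlap between groups (15.3% of all genes were), while 6 were lower in Kcnh2-/- within both replicate numbers (28.1% of all genes were). Adding the replicate number as a term over protein-coding genes alone called 3 of the 6 lower (Tnnc1, Actc1 and Acta1), where 0.221% of 10845 genes were called lower; over all genes the same term called 0 of the 6.

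As medians, the 6 sarcomere genes tested differed between replicates of a group by more than between the groups. Replicate 2 lay below replicate 1 by a median log2 of -2.53 in Kcnh2-/- and -3.66 in WT over the 6 genes, against 0.0865 and 0.0710 over all genes tested. Of the 6, Myl3 passed the filter through the replicate 1 libraries alone. The 4 near-silent genes left out ran from -0.356 to 0.108 in Kcnh2-/- and from -1.64 to -0.218 in WT. The median Kcnh2-/- minus WT difference of the 6 genes was -2.24 within replicate 1 and -1.19 within replicate 2. Without WT replicate 1, Tnnc1 stood at -0.74 and Actc1 at -0.67, and Acta1 and Myl4 were higher in Kcnh2-/-, by 0.17 and 0.70. Without Kcnh2-/- replicate 2, Tnnc1 stood at -1.16 and Actc1 at -1.19, with Acta1, Myl3 and Myl4 between -0.13 and -0.04. The other removals enlarged the differences: Tnnc1, Actc1 and Acta1 stood at -5.05, -4.34 and -3.47 without WT replicate 2, and at -4.64, -3.83 and -3.26 without Kcnh2-/- replicate 1. All these values are log2(RPKM + 1) differences.

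Part of the set lies on chromosomes whose median gene was lower in Kcnh2-/- replicate 2 than in WT replicate 2. Which of these libraries had shifted was not tested. The medians of the protein-coding genes tested were -0.39 on chromosome 16 (Tnnc1), -0.35 on chromosome 13 (Tnnt2) and -0.33 on chromosome 3 (Actc1) within replicate 2, the 3 lowest of 20 autosomes. Within replicate 1 they were -0.0218, -0.0520 and -0.000836. Less its chromosome's median, the replicate 2 difference was -2.09 for Tnnc1, -0.59 for Tnnt2 and -1.66 for Actc1, and Acta1, on chromosome 19 with a median of 0.0880, stood at -1.52. The median of the pooled differences of the 6 genes was -1.50 after that subtraction, a step chosen after the data were seen.

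**Figure D3:**
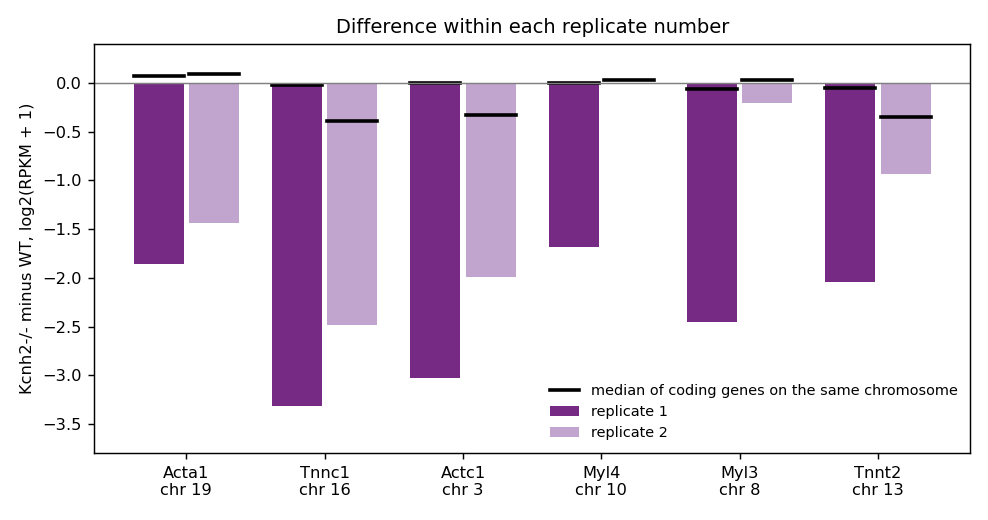
Kcnh2-/- minus WT difference in log2(RPKM + 1) within replicate 1 (dark bars) and replicate 2 (light bars) for the 6 sarcomere genes that passed the filter, with black lines at the median of the protein-coding genes tested on the same chromosome. Every bar lies at or below 0, the bars of Tnnc1, Actc1 and Acta1 are below -1.4 in both numbers, and that of Myl4 in replicate 2 is -0.00974.

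Other genes of the cardiac sarcomere and Z-disc followed only in part. Of 30 listed, 28 were in the files and 9 passed the filter, of which 0 passed the test in either direction (median difference -0.89), and 16 of the 28 were under 1 RPKM in all 4 libraries. Tropomyosin 1 (Tpm1), which lies along actin and is also made outside muscle, had 357 and 227 RPKM in Kcnh2-/- and 790.0 and 235 RPKM in WT. The stress-responsive ankyrin repeat gene Ankrd1 had 13.3 and 1.02 RPKM in Kcnh2-/- and 54.3 and 2.23 RPKM in WT, and the LIM protein gene Fhl2 had 11.3 and 0.425 RPKM in Kcnh2-/- and 35.1 and 2.59 RPKM in WT. Both resembled the high sarcomere genes in their order of libraries, with WT replicate 1 highest and Kcnh2-/- replicate 2 lowest. Nebulette (Nebl), a Z-disc protein gene, had 1.26 and 0.731 RPKM in Kcnh2-/- and 4.23 and 2.43 RPKM in WT, without overlap (limma adjusted p = 0.980). Nexilin (Nexn), an actin-binding protein gene, had 1.26 and 0.662 RPKM in Kcnh2-/- and 4.27 and 1.46 RPKM in WT, also without overlap. In all, 3 of the 9 were lower without overlap, beside the 15.3% of all genes tested.

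Several genes that define cardiomyocytes were close to 0 in all 4 libraries. Tnnt2 was at 1.04 RPKM or more in each library. Myl3 was at 6.12 and 37.9 RPKM in the replicate 1 libraries of Kcnh2-/- and WT, but at 0.335 and 0.543 RPKM in their replicate 2 libraries. The alpha myosin heavy chain Myh6 ran from 0.0730 to 0.110 RPKM over the 4 libraries, the ventricular light chain Myl2 was at 0.446 RPKM or less, and alpha-actinin 2 (Actn2) at 0.420 RPKM or less. The cardiac transcription factor genes Nkx2-5 and Tbx5 reached 0.111 and 0.0258 RPKM at most. These 5 genes were named after their values were seen. Of 25 cardiac transcription factors listed, 24 were in the files, 9 passed the filter and 0 passed the test (median difference -0.40). At 1 RPKM or more were 9 and 6 of the 24 in Kcnh2-/- replicates 1 and 2, and 17 and 6 in WT replicates 1 and 2. Srf, the gene of serum response factor, differed little between groups, at 31.3 and 30.1 RPKM in Kcnh2-/- and 36.2 and 23.6 RPKM in WT (difference 0.0682 ± 0.31, SE). Mef2a, a factor of muscle genes, had 10.6 and 10.7 RPKM in Kcnh2-/- and 19.0 and 9.001 RPKM in WT. Tbx3 had 1.53 and 9.50 RPKM in Kcnh2-/- and 3.37 and 11.1 RPKM in WT, with replicate 2 above replicate 1. The factor genes Gata4 and Gata6, used in heart and endoderm, had replicate 2 below replicate 1: Gata4 had 1.54 and 0.0265 RPKM in Kcnh2-/- and 5.19 and 1.32 RPKM in WT, and Gata6 had 1.05 and 0.406 RPKM in Kcnh2-/- and 6.07 and 0.804 RPKM in WT.

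Most skeletal relatives were near-silent, the cytoplasmic actins were abundant, and the smooth muscle genes varied in their order of libraries. Of 20 skeletal genes listed, 18 were in the files and 11 of them were under 1 RPKM in all 4 libraries; 3 passed the filter and 0 the test (median difference -0.50). Tpm2, a tropomyosin of slow and smooth muscle, had 53.1 and 22.6 RPKM in Kcnh2-/- and 142 and 39.3 RPKM in WT. Mylpf, the fast regulatory light chain, stayed low, at 1.92 and 1.59 RPKM in Kcnh2-/- and 1.20 and 0.939 RPKM in WT, and fast myosin-binding protein C (Mybpc2) had 1.97 and 1.82 RPKM in Kcnh2-/- and 1.48 and 5.79 RPKM in WT. Of 21 smooth muscle and cytoplasmic genes, 17 passed the filter and 0 the test (median difference -0.37). The cytoplasmic actin genes were abundant in every library. Actb had 1873 and 2135 RPKM in Kcnh2-/- and 2328 and 1883 RPKM in WT, and Actg1 had 1255 and 1182 RPKM in Kcnh2-/- and 1497 and 963 RPKM in WT. Both overlapped between groups and spanned far less than Actc1 or Acta1 did. The non-muscle light chain Myl6 had 718 and 1160 RPKM in Kcnh2-/- and 1405 and 869 RPKM in WT. Actn4, a non-muscle alpha-actinin gene, had 39.6 and 41.7 RPKM in Kcnh2-/- and 62.8 and 79.3 RPKM in WT, and the smooth muscle light chain Myl9 had 34.0 and 25.4 RPKM in Kcnh2-/- and 83.8 and 43.9 RPKM in WT. Actn4 and Myl9 were without overlap between groups (limma adjusted p = 0.980 each). In this list 3 of the 17 were lower and 2 higher in Kcnh2-/- without overlap. Of the 12355 genes tested, 1891 (15.3%) were lower and 2063 were higher without overlap. The smooth muscle gene Tagln, which encodes the actin-binding protein transgelin, had 255 and 16.7 RPKM in Kcnh2-/- and 1329 and 54.9 RPKM in WT (difference -2.02). Smooth muscle actin (Acta2) had 9.85 and 0.296 RPKM in Kcnh2-/- and 40.6 and 0.491 RPKM in WT. Both had WT replicate 1 highest and Kcnh2-/- replicate 2 lowest, and both were picked with their values in view. Not all smooth muscle genes of the list shared that order. Caldesmon (Cald1) had 50.9 and 31.2 RPKM in Kcnh2-/- and 205 and 23.3 RPKM in WT, so WT replicate 2 was lowest. Myh11 was higher in Kcnh2-/- without overlap, at 1.91 and 1.68 RPKM against 1.02 and 1.13 RPKM in WT.

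Genes of calcium cycling and the natriuretic peptides varied from gene to gene. Of 13 listed, 13 were in the files, 4 passed the filter and 0 the test (median difference 0.0272). The calcium pump gene Atp2a2 was level, at 84.8 and 91.2 RPKM in Kcnh2-/- and 78.6 and 86.9 RPKM in WT, and its inhibitor phospholamban (Pln) had 2.90 and 1.66 RPKM in Kcnh2-/- and 2.36 and 1.45 RPKM in WT. The natriuretic peptide gene Nppb had 6.27 and 11.3 RPKM in Kcnh2-/- and 17.8 and 4.00 RPKM in WT. The calcium-dependent kinase gene Camk2d had 3.81 and 3.06 RPKM in Kcnh2-/- and 14.2 and 2.43 RPKM in WT, so WT replicate 1 alone was high. The sodium-calcium exchanger gene Slc8a1, which did not pass the filter and was picked with its values in view, had 0.662 and 0.207 RPKM in Kcnh2-/- and 3.31 and 0.338 RPKM in WT, the order of libraries seen in the high sarcomere genes.

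Markers of some other cell types also varied across the libraries, and WT replicate 1 had the highest sum of all lists but the pluripotency one. The 10 sarcomere genes summed to 180 and 20.8 RPKM in Kcnh2-/- and to 1077 and 72.1 RPKM in WT. The 5 definitive endoderm markers summed to 45.2 and 2.94 RPKM in Kcnh2-/- and to 177 and 53.7 RPKM in WT. All 5 were lower in Kcnh2-/- within both replicate numbers, as were 28.1% of all genes tested. The 8 extraembryonic endoderm markers summed to 118 and 61.9 RPKM in Kcnh2-/- and to 251 and 59.0 RPKM in WT. Of these 8, the secreted-protein genes Afp, Apoa1 and Apoa4 were under 1 RPKM in all 4 libraries, whereas the secreted carrier gene Ttr reached 30.9 RPKM and the matrix protein gene Sparc reached 159 RPKM, both in WT replicate 1.

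The sums of early mesoderm, fibroblast and blood markers were lower, and they had the same order of libraries as the sarcomere sum. For fibroblast and blood markers the order within replicate 2 rested on genes below 1 RPKM. The 7 early mesoderm markers summed to 19.3 and 10.8 RPKM in Kcnh2-/- and to 33.5 and 14.6 RPKM in WT. Of the 3 that passed the filter, T and Pdgfra were lower in Kcnh2-/- within both replicate numbers and Eomes was higher within both. Eomes had 11.5 and 9.79 RPKM in Kcnh2-/- and 8.70 and 9.05 RPKM in WT, so it made up most of the sum in Kcnh2-/- replicate 2. The 7 fibroblast or feeder markers found of 8 summed to 5.46 and 0.533 RPKM in Kcnh2-/- and to 20.99 and 1.58 RPKM in WT. At 1 RPKM or more were 3 and 0 of them in Kcnh2-/- and 3 and 0 in WT. The 3 were Col3a1, Col1a1 and Dcn in Kcnh2-/- replicate 1, and Col3a1, Postn and Fbn1 in WT replicate 1. Within replicate 1, Col1a1 and Dcn were higher in Kcnh2-/-, at 1.40 and 1.42 RPKM against 0.560 and 0.741 RPKM in WT. Within replicate 2 both were lower in Kcnh2-/-. The 6 pluripotency markers found of 8 summed to 1317 and 2239 RPKM in Kcnh2-/- and 355 and 1577 RPKM in WT, most of it Pou5f1. Of these 6, 4 were higher in Kcnh2-/- within both replicate numbers, as were 3805 of the 12355 genes tested. Sox2 was lower within both, at 18.1 and 43.8 RPKM in Kcnh2-/- and 33.9 and 47.8 RPKM in WT. The 3 neural markers found of 4 summed to 18.1 and 16.3 RPKM in Kcnh2-/- and 45.1 and 11.9 RPKM in WT, nearly all of it Tubb3. Blood markers (5 found of 6) summed to 2.91 and 0.603 RPKM in Kcnh2-/- and 12.2 and 0.742 RPKM in WT. Within replicate 2, Runx1 was lower in Kcnh2-/-, at 0.189 against 0.583 RPKM, while Tal1, Hbe1 and Hbb were higher. Endothelial markers (4 found of 5) summed to 4.93 and 5.40 RPKM in Kcnh2-/- and 18.9 and 4.14 RPKM in WT. The part of these cell types in the sarcomere values was not tested.

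**Figure D4:**
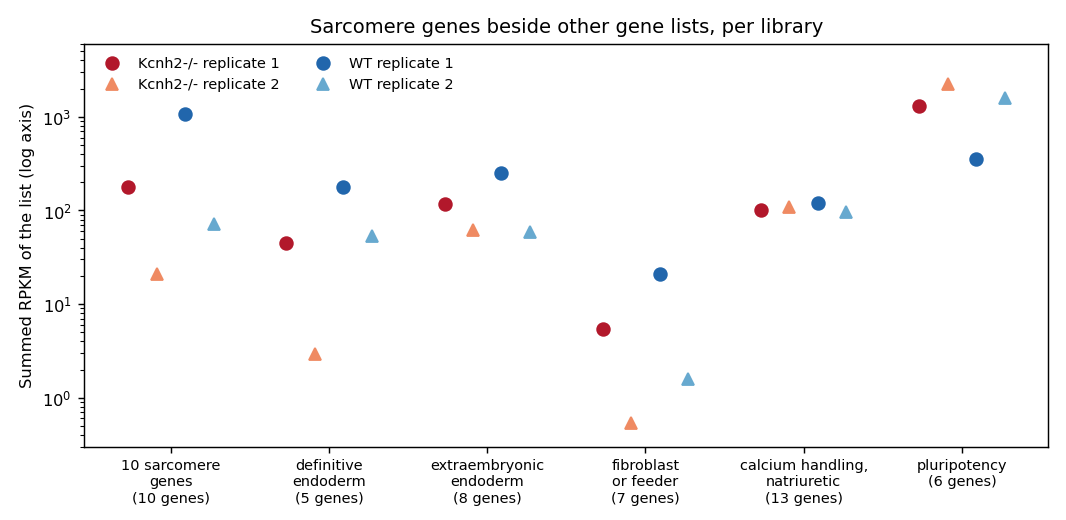
Summed RPKM of the 10 sarcomere genes and of 5 other gene lists in each library, on a log axis, with circles for replicate 1 and triangles for replicate 2. The sarcomere sum runs from 20.8 to 1077 RPKM with the same order of libraries at its ends as the definitive endoderm and fibroblast lists. Calcium handling, of which Atp2a2 alone makes up 78.6 to 91.2 RPKM, stays between 96.6 and 121 RPKM. The pluripotency sum, mostly Pou5f1, is lowest in WT replicate 1.

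Over the 4 libraries, the genes nearest in pattern to the mean of the 6 tested sarcomere genes were Ttr, Pdlim3, Tspan12, Greb1l and Tmprss2, by the root mean square distance between log2(RPKM + 1) values less each gene's own mean, among the 8000 protein-coding genes whose mean reached 5 RPKM. Their distances ran from 0.0950 to 0.188 on the log2 scale, and those of the sarcomere genes themselves from 0.311 (Acta1) to 0.728 (Tnnc1). Ttr, a member of the extraembryonic endoderm list that encodes the thyroxine carrier transthyretin, had 4.24 RPKM in Kcnh2-/- replicate 1 and was listed at 0 in replicate 2, and it had 30.9 and 1.31 RPKM in WT. Pdlim3, which encodes an alpha-actinin-binding protein, had 17.4 and 3.66 RPKM in Kcnh2-/- and 119 and 9.18 RPKM in WT. With 4 libraries, likeness in pattern describes these libraries only.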

How the data were processed

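Day 4 embryoid bodies were sequenced as paired reads of 100 bases from strand-marking libraries, per the labels' protocols. The authors ran TopHat2 2.0.13 with Cufflinks 2.2.1 against rn6, per the submitters' processing notes; no annotation is named there. Each deposited file holds the RPKM of every gene in a single library. Absolute depth and counting precision are unknown.

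Kcnh2-/- was compared with WT in limma 3.58.1 (R 4.3.3), with trended empirical Bayes moderation and two-sided tests, on log2(RPKM + 1). This scale understates changes of low genes. Genes entered where 2 or more of the 4 libraries reached 1 RPKM, which left 12355, and p-values were adjusted over all of them by Benjamini-Hochberg, with 0.05 as the threshold. The fit was also run on simulated data, and its recovery of known changes is not given here. Of 19341 symbols matched in a RefSeq table (GRCr8, for names and biotypes), 18638 were protein-coding. The 10 genes, the lists and the tests were chosen with earlier results of these data known. All 10 are named, and from each list the 3 of highest mean and the 2 of smallest p; any further gene was picked with its values in view. Pseudocount, filter, scaling, trend, threshold, replicate term, gene set and each library left out were varied in 15 ways, and subtraction of chromosome medians was added later. Python 3.11.15 was used, with pandas 2.3.3, numpy 2.4.6, and matplotlib 3.10.9 for the plots.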

Additional observations from a re-analysis of the deposited data

How the results depend on the processing

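Over all genes, limma called 14 genes. The count was 3 with a pseudocount of 5, without the mean-variance trend and with protein-coding genes alone, 1 with no filter, and 0 to 15 with 1 library left out (0 without WT replicate 1 and 0 without WT replicate 2). With the replicate block it was 28, and with protein-coding genes alone and the replicate block it was 81. The number of sarcomere genes called was 0 in every alternative except the last, where it was 3: Tnnc1 (limma adjusted p = 0.00597), Actc1 (0.0128) and Acta1 (0.0269). With the block over all genes their adjusted p was 0.0651, 0.127 and 0.160. In that last setting 0.221% of 10845 genes were called lower. The labels give the replicates a shared number but no shared source. The correlation of same-numbered deviations was 0.381 over all genes tested and 0.582 over the protein-coding genes, across genes and from only 2 pairs.

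The median difference of the sarcomere genes in each fit kept its direction, from -1.78 to -1.09 apart from the libraries left out, and from -3.57 to -0.43 with 1 left out. The genes in these medians differed: -1.09 was over all 10 with no filter, and -0.43 over 5 without WT replicate 1. With 1 left out, Acta1 ran from -3.47 to 0.17 and Myl4 from -2.39 to 0.70, positive without WT replicate 1. The cause was not tested. Myl3 did not pass the filter without WT replicate 1 or without Kcnh2-/- replicate 1. Unknown depth limits statements on the 4 near-silent genes.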

Other observations

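Regulators of heart development were scattered above 1 RPKM mainly in WT replicate 1. Of the 24 cardiac transcription factor genes in the files, 9 and 6 were at 1 RPKM or more in Kcnh2-/- replicates 1 and 2, and 17 and 6 in WT replicates 1 and 2. The second heart field factor Isl1 had 0.454 and 0.0188 RPKM in Kcnh2-/- and 7.51 and 0.348 RPKM in WT. The ventricular factor Hey2 had 0.575 and 0.973 RPKM in Kcnh2-/- and 5.59 and 0.544 RPKM in WT, and Tbx20 had 0.249 and 0.0577 RPKM in Kcnh2-/- and 3.67 and 0.165 RPKM in WT. Hand2 had 0.293 and 0.342 RPKM in Kcnh2-/- and 2.90 RPKM in WT replicate 1, and it was listed at 0 in WT replicate 2. The atrial natriuretic peptide gene Nppa, which is not one of the 24 factor genes, had 0.387 and 0.0687 RPKM in Kcnh2-/- and 3.58 and 0.209 RPKM in WT. These 5 genes were chosen after their values were seen and did not pass the filter, so no test is given.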
